A study of Mus musculus with 9 samples.

Results

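The retinal pigment epithelium (RPE) was compared with the choroid (CH), the vascular layer beneath it, on 6 of the 9 dual-colour Agilent whole mouse genome arrays of the series. The 6 arrays are those whose labels name the tissue as RPE (3 arrays) or CH (3 arrays), and the comparison covers all 39429 probes that are not controls, which stand for 31709 genes. Both tissues were cut with a laser microscope from frozen sections of eyes of untreated female C57BL/6 mice (of the J strain by the study's methods), aged 6 months with a range of 2 weeks by the labels, and the study's methods give another age. Each sample was a whole eye by those methods, and the RPE was taken away before the CH was cut. The labels do not say which animal an eye came from, so the p-values measure the spread between these samples. Each tissue's amplified RNA was labelled with Cy5. A single reference pool, made of RPE/choroid RNA from mice and labelled with Cy3, was put on every array, and no array had its dyes swapped. The remaining 3 arrays, of photoreceptors (PR), entered the estimate of the spread and are given as a level where it helps.

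The RPE is a single sheet of pigmented, polarised epithelial cells between the photoreceptors and the CH. It regenerates the retinal chromophore of the photoreceptors in the visual cycle, takes up their shed outer segment tips, moves water, ions and nutrients across its tight junctions and secretes growth factors towards both sides. The CH is a connective tissue of collagen and elastic fibres with a capillary bed below the RPE, larger vessels, melanocytes that derive from the neural crest, fibroblasts, nerves, macrophages and mast cells.

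A log2 ratio below is log2(Cy5/Cy3) of 1 array, and a log2 fold change (FC) is the mean of the RPE arrays minus the mean of the CH arrays, so that a negative value is higher in the CH. A gene has the value of 1 reported probe, the brightest over the 6 arrays that was not saturated on them, or the brightest where all were. It was called when its FC was above 2.5 and its Benjamini-Hochberg (B-H) adjusted p-value below 0.01 (limma), and it passed the test when the adjusted p-value was below 0.05 at any FC. Arrays of 1 tissue had correlations across probes between 0.861 and 0.935 and arrays of different tissues between 0.653 and 0.791. The share of probes well above background was between 63.1% and 70.6% on 5 of the 6 arrays and 91.8% on RPE replicate 2. CH replicate 3 lay nearest to the RPE arrays. It also stood apart from the other CH arrays in the lens crystallins, as RPE replicate 3 did from the other RPE arrays. The median log2 ratio of 16 crystallin genes was -2.86 on CH replicate 3 against 1.74 and 2.11 on the other CH arrays, and 3.76 on RPE replicate 3 against 0.75 and 0.57. Of these genes 1 passed the test, Crygn, and without both arrays the median log2 FC of the list turned from 1.44 to -1.06. The part of lens RNA in other results was not tested. Precision is limited by the number of arrays, 3 in each tissue.

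More genes were called higher in the CH, and their FCs reached further. Called higher in the RPE were 59 genes (0.186% of the genes tested) and called higher in the CH were 560 genes (1.77%). The FC of the RPE genes lay between 2.51 and 3.97 with a median of 2.75. In the CH it reached 15.7 with a median of 3.08, and 87 genes exceeded 4-fold, whereas 0 genes did so in the RPE (limma, and 0 genes at an unadjusted p below 0.05 as well). The test at an adjusted p-value below 0.05 was passed by 3279 genes higher in the RPE (10.3%) and 3861 genes higher in the CH (12.2%), and most of the former had an FC under 2.5. The counts of each list below are to be read against these shares. They are over all genes tested, of which 64.6% were well above background on all 3 arrays of a tissue. The values of the tissues overlapped in none of the 59 and none of the 560 called genes, so a lack of overlap adds nothing to a call. All 59 RPE genes were well above background on all 6 arrays and 7 of them were saturated on all RPE arrays. Of the 560 CH genes, 497 were well above background on all 6 arrays. The labels name no slide, and the slides here were read from the identifiers of the arrays. By these the arrays lay on 3 slides. RPE replicates 1 and 3 shared a slide with CH replicates 1 and 3, whereas the replicates 2 shared another. The 59 RPE genes had the same direction within each of these slides, with median log2 differences of 1.23 and 1.92. The same held for 558 CH genes, with median differences of -1.56 and -1.83, and the other 2 lacked a value on CH replicate 2. The calls in the RPE depended on single arrays. Without CH replicate 2 there were 16 and without RPE replicate 2 there were 34, against 151 without CH replicate 3 and 179 without CH replicate 3 and RPE replicate 3. Without any 1 of the 9 arrays the calls in the CH lay between 436 and 745. With median centring in place of loess there were 9 calls in the RPE and 1050 in the CH. The log2 ratios of most called RPE genes were lowest in the PR, in 57 of 59 genes, and this was the case for 501 of the 560 CH genes.

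**Figure D1:**
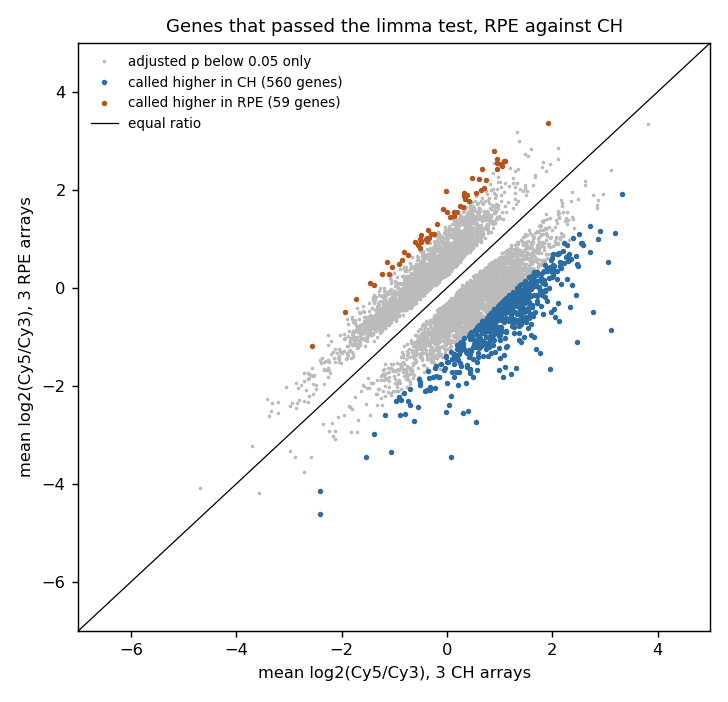
Each point is a gene that passed the test at an adjusted p-value below 0.05, with its mean log2 ratio on the 3 CH arrays (horizontal axis) and on the 3 RPE arrays (vertical axis), and colours mark the called genes. The 59 genes called higher in the RPE lie in a narrow band above the line of equal ratios, with FCs of up to 3.97, whereas the 560 genes called higher in the CH reach 15.7-fold below it.

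The genes of the visual cycle gave the clearest signal on the side of the RPE. Of 13 enzymes and retinoid carriers, 10 passed the test, all higher in the RPE, and 7 were called. The median log2 FC of the list was 1.56, against 0.03 for all genes. Rdh10, a retinol dehydrogenase, had log2 ratios of 1.90, 2.11 and 1.90 on the RPE arrays and of -0.14, -0.63 and 0.71 on the CH arrays. All RPE arrays were above all CH arrays, and the difference of 1.99 (standard error 0.28, adjusted p = 0.00114, limma), an FC of 3.97, was the largest of the called RPE genes. The files place its probe at chr1:16122062-16122121 of the mouse assembly mm9. Lrat, which esterifies retinol, had log2 ratios of 2.96, 2.98 and 2.42 in the RPE and of 0.58, 0.45 and 1.63 in the CH, an FC of 3.72 (adjusted p = 0.00223, limma). Its probe was saturated on 1 RPE array. Rlbp1, the carrier of 11-cis-retinoids in these cells, had 2.31, 2.56 and 1.84 in the RPE and 0.23, 0.08 and 1.12 in the CH (FC 3.39, adjusted p = 0.00315). Rrh, an opsin of the RPE called peropsin, had 1.83, 2.29 and 1.67 against 0.08, -0.07 and 0.95 (FC 3.06, adjusted p = 0.00189), and its second probe gave a log2 FC of 1.62. In each of these 4 genes the tissues did not overlap, and CH replicate 3 was the highest CH array.

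The isomerase Rpe65, the dehydrogenase Rdh5 and transthyretin (Ttr), a carrier of retinol and thyroid hormone, were called as well, but their spots were saturated on all 3 RPE arrays and on 1, 2 and 3 CH arrays, so no FC is given. The log2 ratios of Rpe65 were 2.49, 2.71 and 2.45 in the RPE and 0.82, 0.74 and 1.30 in the CH. Rgr, an opsin that binds all-trans-retinal, and Stra6, the receptor for retinol binding protein, passed the test without being called, at log2 FCs of 1.64 and 1.29 (adjusted p = 0.0192 and 0.0164, limma). Both had a CH replicate 3 close to the RPE, at 2.56 against a lowest RPE value of 2.86 for Rgr and at 1.27 against 1.5 for Stra6. Rdh11 passed at 0.80. The retinol binding protein Rbp4 and the reductase Dhrs3 were among the members that did not pass. In the CH the median log2 ratio of the 13 genes was 0.23, 0.15 and 0.95 on the 3 arrays, and in the PR it was between -3.25 and -3.07. The CH samples thus held RNA of this list at a level far above that of the PR, and how much of it came from RPE cells left in the CH sections was not tested.

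Without CH or RPE replicate 2, or without RPE replicate 1, Lrat lost its call, and Rlbp1 lost it without replicate 1 or 2 of either tissue. With median centring the log2 FC of Lrat was 1.53 (adjusted p = 0.0151) and that of Rlbp1 1.38 (adjusted p = 0.0157).

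The promoters of a few called genes are printed to show the sequence upstream of genes that differed in opposite directions. They are the 250 bases before the start of the RefSeq gene on GRCm38.p6, written from 5′ to 3′ on the strand of the gene. Capitals mark the matches, on either strand, to 6 sets of letters. CACGTG is an E-box of the kind bound by MITF, and CATGTG is a variant of it. TAATCC is the core of sites bound by OTX factors. The TATA box was searched as TATAAA and the CCAAT box by its name's letters. The letters of AP-1 sites were searched as TGACTCA. No matches overlapped in the promoters shown. Rpe65 (chr3:159598931-159599180, plus strand) and Rlbp1 (chr7:79387028-79387277, minus strand) were higher in the RPE. Tyrp1 (chr4:80833963-80834212, plus strand), of melanin synthesis, and Col1a2 (chr6:4505368-4505617, plus strand), a chain of type I collagen, were higher in the CH.
Rpe65: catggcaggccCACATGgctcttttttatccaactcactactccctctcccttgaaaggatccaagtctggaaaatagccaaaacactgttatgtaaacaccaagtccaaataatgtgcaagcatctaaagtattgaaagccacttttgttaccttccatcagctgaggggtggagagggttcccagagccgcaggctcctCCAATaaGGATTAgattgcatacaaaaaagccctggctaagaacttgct
Rlbp1: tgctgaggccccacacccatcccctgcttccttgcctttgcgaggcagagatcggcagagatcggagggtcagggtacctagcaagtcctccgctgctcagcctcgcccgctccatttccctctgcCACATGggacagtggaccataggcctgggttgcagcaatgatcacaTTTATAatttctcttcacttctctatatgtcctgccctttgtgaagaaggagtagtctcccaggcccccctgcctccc
Tyrp1: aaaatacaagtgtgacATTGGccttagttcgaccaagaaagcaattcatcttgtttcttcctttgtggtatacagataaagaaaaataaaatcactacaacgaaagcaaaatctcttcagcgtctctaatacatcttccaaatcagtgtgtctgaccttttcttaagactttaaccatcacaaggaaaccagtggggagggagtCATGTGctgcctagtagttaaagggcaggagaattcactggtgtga
Col1a2: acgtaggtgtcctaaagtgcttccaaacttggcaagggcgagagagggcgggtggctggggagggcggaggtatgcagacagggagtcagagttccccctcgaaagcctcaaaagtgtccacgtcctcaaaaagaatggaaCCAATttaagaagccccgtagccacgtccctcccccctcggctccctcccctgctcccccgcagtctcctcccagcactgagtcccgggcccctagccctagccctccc

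CATGTG was found in Rlbp1 (as CACATG, 124 bases before the start), in Rpe65 (239 bases before the start) and in Tyrp1 (46 bases before the start), of which the first 2 were higher in the RPE and the last in the CH. Of 17401 tested genes with a promoter in the table, 9.9% held CATGTG, against 15.2% of the 46 promoters of genes called higher in the RPE and 12.5% of the 335 promoters of genes called higher in the CH. TAATCC, found in Rpe65 as GGATTA 42 bases before the start, was in 5.97% of all, 8.7% of the RPE and 3.58% of the CH promoters. CACGTG was in 6.73%, 6.52% and 5.67%. For TGACTCA the shares were 4.03%, 0% (0 of 46) and 8.36%, for TATAAA 11.6%, 10.9% and 12.5%, and for CCAAT 35.6%, 32.6% and 29.9%. A match is a description of these letters and not of a factor that binds them.

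Transporters and ion pumps of the RPE, which carry glucose, lactate, amino acids and ions between retina and blood, gave many of the calls in the RPE. Of 23 nutrient, lactate and amino acid transporters 13 passed the test, all higher in the RPE, and 7 were called (median log2 FC 1.11). Slc6a20a, a carrier of proline and other imino acids, had log2 ratios of 0.79, 1.06 and 0.75 in the RPE and of -0.26, -0.86 and -0.55 in the CH, an FC of 2.69 (adjusted p = 0.000456, limma). Slc6a13, a transporter of GABA and taurine, had 2.41, 2.84 and 2.30 against 0.81, 0.57 and 1.70, an FC of 2.80 (adjusted p = 0.00337). Slc16a8, the lactate carrier MCT3 of the basolateral RPE membrane, had 1.58, 1.77 and 1.28 against 0.19, -0.30 and 0.48, an FC of 2.67 (adjusted p = 0.00149). The values of the tissues did not overlap in any of the 3 genes. The study's semi-quantitative RT-PCR found most of the RPE genes it tested highest in the RPE, among them Rlbp1, Lrat, Rrh and Rpe65. However, it found Slc16a8 highest in the CH. The other called members were Slco1c1 (FC 2.84) and Slco1a4 (2.51), which carry organic anions and thyroid hormones, Slc1a1 (2.60), a glutamate transporter, and Slc7a10 (2.54), a carrier of small neutral amino acids. The call of Slco1c1 was lost without any 1 of 8 arrays, and its second probe gave a log2 FC of 1.24. The calls of Slc6a13 and Slc1a1 were lost without any 1 of 4 arrays and those of Slc7a10 and Slco1a4 without any 1 of 3. The call of Slc16a8 was lost without replicate 2 of either tissue and that of Slc6a20a without CH replicate 2. The glucose transporter Slc2a1 had the largest difference of the list, at a log2 FC of 1.64, but an adjusted p-value of 0.0146, and its log2 ratio on CH replicate 3 (2.04) was far above those on the other CH arrays (0.46 and 0.19), and the probe was saturated on 2 RPE arrays and 1 CH array.

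Of 26 ion pumps, channels and carbonic anhydrases, 13 passed higher in the RPE and 2 higher in the CH, and 3 were called, all in the RPE. Atp1b1, the beta subunit of the sodium pump that sits in the apical membrane of the RPE, had log2 ratios of 1.16, 1.33 and 0.71 in the RPE and of -0.48, -0.72 and -0.27 in the CH (FC 2.94, adjusted p = 0.00234, limma). Car12 and Car14, membrane-bound carbonic anhydrases, had FCs of 2.78 and 2.56 (adjusted p = 0.00479 and 0.00289). The call of Car12 was lost without any 1 of 5 arrays, that of Car14 without any 1 of 4 and that of Atp1b1 without any 1 of 3. For Car12 the lowest RPE array was at 1.69 and the highest CH array, replicate 3, at 1.06. The cation channel Trpm3 passed at a log2 FC of 1.12 with its 3 probes between 1.12 and 1.36. The chloride channels Ano1 and Cftr lay in the opposite direction, at -1.32 and -1.18 (adjusted p = 0.000552 and 0.00103). With median centring 5 members passed higher in the RPE and 2 higher in the CH.

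Some genes of epithelial junctions were higher in the RPE, but most did not pass the test. Of 17 tight junction genes 6 passed higher in the RPE and 1, F11r, higher in the CH. Cldn2, a claudin that forms pores for cations, was called, with log2 ratios of 0.27, 0.23 and 0.33 in the RPE and of -0.99, -1.69 and -1.02 in the CH (FC 2.85, adjusted p = 0.000617, limma). The second probe of Cldn2 gave a log2 FC of 1.08. Cldn10, Cldn1 and Ocln passed at log2 FCs of 1.22, 1.17 and 1.04, and a second probe of Ocln gave 0.61. In the list of cadherins, keratins and desmosomes 6 of 14 genes passed higher in the RPE, among them P-cadherin (Cdh3, 1.16) and the keratins of simple epithelia Krt18 (1.16) and Krt8 (1.05). E-cadherin (Cdh1) was called in the CH. Its log2 ratios were -1.07, -1.32 and -1.17 in the RPE and 0.48, 0.39 and -0.21 in the CH (FC 2.65, adjusted p = 0.000559), so that P-cadherin and E-cadherin differed in opposite directions.

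**Figure D2:**
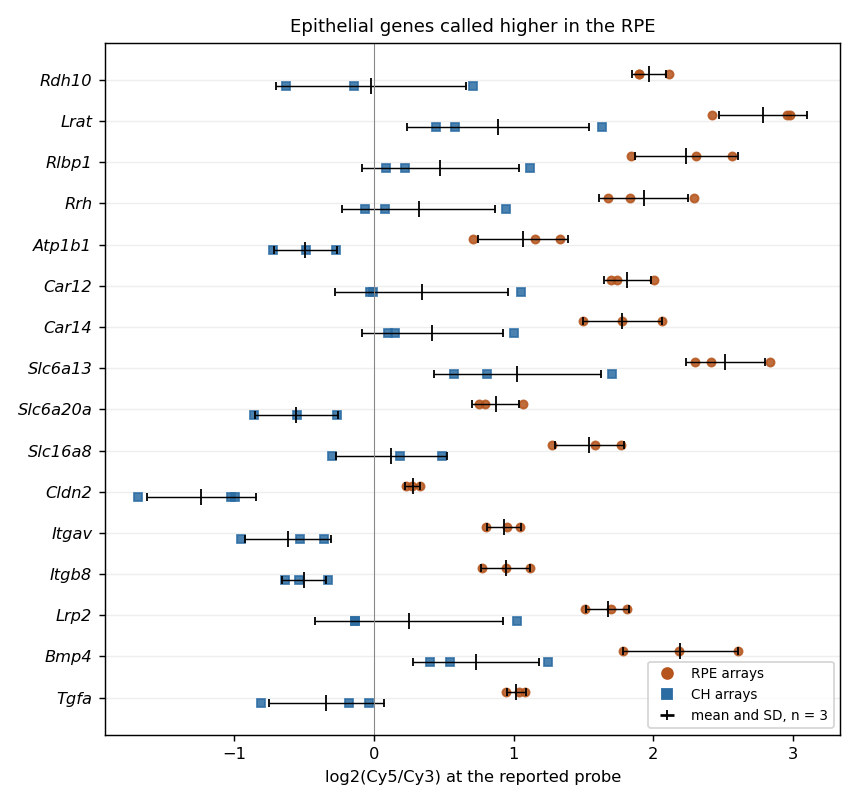
Log2(Cy5/Cy3) on each RPE array (circles) and CH array (squares) for 16 genes called higher in the RPE, with the mean and SD of each tissue (n = 3). As in every called gene, there is no overlap between the tissues. The CH array farthest to the right is replicate 3 in all but Slc6a20a, Cldn2 and Tgfa.

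Lipid handling and energy metabolism were higher in the RPE over many members at small FCs. Of 37 genes of lipid uptake, synthesis and oxidation 19 passed higher in the RPE and 2 in the CH (median log2 FC 0.51). Called were Lrp2 (megalin, an endocytic receptor, FC 2.68), Gpam (which starts glycerolipid synthesis, 2.69), Mogat1 (2.63) and Enpp2 (autotaxin), which was saturated on all RPE arrays and has no FC. The log2 ratios of Lrp2 were 1.70, 1.81 and 1.51 in the RPE and -0.13, -0.14 and 1.03 in the CH. The calls of Lrp2 and Gpam were each lost without any 1 of 6 arrays, that of Enpp2 without any 1 of 7 and that of Mogat1 without any 1 of 3. The second probe of Gpam gave a log2 FC of 0.96. The desaturases Fads1 and Fads2 passed at log2 FCs of 1.21 and 1.17. Abca4, which moves retinoids across membranes, passed at 1.19, and its mean log2 ratio was 2.39 in the PR, above the RPE arrays (0.49 to 1.03).

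Subunits of oxidative phosphorylation were higher in the RPE in 52 of 84 genes and higher in the CH in 0 (limma, and in 1 at an unadjusted p below 0.05), with a median log2 FC of 0.54 and no call. The largest was that of Ndufb11, a subunit of complex I, at 1.08 (adjusted p = 0.00157), and its 2 other probes gave 0.84 and 1.02. The median log2 ratio of the 84 genes was 0.29, 0.46 and 0.17 on the RPE arrays and -0.28, -0.26 and -0.04 on the CH arrays. Of 33 genes of glycolysis and the TCA cycle 15 passed (median 0.38, Suclg1 at 1.01), and of 39 proteasome subunits 16 passed (median 0.33, Psmb1 at 1.02), all higher in the RPE. These small differences depended on the normalization. With median centring 4 of the 84 subunits, 1 of the 33 genes and 1 of the 39 proteasome subunits passed higher in the RPE, the proteasome median was 0.04, and 2 proteasome subunits passed higher in the CH. Of 84 cytoplasmic ribosomal proteins 13 passed higher in the CH and 3 higher in the RPE (median -0.18), and Rps12, with saturated spots on all CH arrays, was higher there by at least 1.23-fold. Replication-dependent histones were higher in the RPE in 30 of 47 genes (median 0.72), and H4c9 was called at an FC of 2.54 with a second probe at a log2 FC of 0.51. These genes are near-identical copies, so their probes may share transcripts and the 30 genes are not separate observations. With median centring 11 of them passed.

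Lysosomal genes were split between the tissues. Of 29 hydrolases and proton pump subunits 11 passed higher in the RPE and 9 higher in the CH. The protease cathepsin D (Ctsd), which degrades opsin of ingested outer segments, was called in the RPE, with log2 ratios of 0.12, 0.32 and -0.15 against -0.65, -1.56 and -2.15 in the CH (FC 2.93, adjusted p = 0.00604, limma). Its second probe gave a log2 FC of 0.41 and the call was lost without any 1 of 7 arrays. Cathepsin H (Ctsh) was called in the CH (log2 FC -1.55, adjusted p = 0.000562), and cathepsin S (Ctss), a protease of antigen-presenting cells that is not in this list, differed by -2.95 (FC 7.71, adjusted p = 3.42e-05). Antioxidant enzymes were split as well, with 10 of 28 genes higher in the RPE and 6 higher in the CH. Pon1, a paraoxonase, was called in the RPE with log2 ratios of 2.26, 2.93 and 2.11 against 0.38, 0.24 and 1.35 (FC 3.42, adjusted p = 0.00314), and the glutathione peroxidase Gpx4 passed at 1.08. The probes of both were saturated on 1 RPE array, and the call of Pon1 was lost without any 1 of 4 arrays. The glutathione transferases Gstm1 and Gstm2 lay at -1.31 and -1.25, with other probes at -0.61 for Gstm1 and between -0.93 and -0.79 for Gstm2. Among the 12 genes with the largest FC in the RPE were also Arl6ip1 (an endoplasmic reticulum protein, FC 3.20), Prxl2a (3.07) and Gpm6a (a membrane glycoprotein of neurons, 2.93). The call of Gpm6a was lost without any 1 of 5 arrays, whereas Arl6ip1 and Prxl2a kept theirs.

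Uptake of outer segments uses receptors on the RPE surface and bridging ligands, and these were divided between both tissues. Of 12 genes 5 passed in each direction. The integrin subunit alpha v (Itgav), which binds the segments, had log2 ratios of 0.95, 0.80 and 1.04 in the RPE and of -0.53, -0.96 and -0.36 in the CH (FC 2.92, adjusted p = 0.000259, limma), and its second probe gave 1.27. The receptor tyrosine kinases Mertk and Tyro3 passed at log2 FCs of 0.86 and 0.92, and Ezr, a protein of the apical microvilli, at 1.19. Axl, the third kinase of this family, lay at -1.31 (adjusted p = 0.000726), with log2 ratios of -0.54, -0.52 and -0.77 in the RPE and of 0.84, 0.95 and 0.30 in the CH. The bridging ligands Gas6, Pros1 and Mfge8 were higher in the CH at -0.72, -0.83 and -0.53 (adjusted p = 0.00837, 0.0118 and 0.0125), whereas Tulp1, another such ligand, passed higher in the RPE. The mean log2 ratio of Mfge8 was highest in the PR, at 1.78 against 0.25 in the CH and -0.28 in the RPE. Those of Gas6 and Pros1 were highest in the CH. The scavenger receptor Cd36 was called higher in the CH, with an FC of 3.79 (adjusted p = 0.000189). Cd36 and Axl are also known from macrophages and endothelium.

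Pigment genes were mostly higher in the CH, although both tissues are pigmented. Of 15 genes of melanin synthesis and the melanosome 8 passed higher in the CH and 2 higher in the RPE, with a median log2 FC of -1.08. Slc45a2, a transporter of melanosomes, had log2 ratios of -0.43, -0.40 and -0.54 in the RPE and of 1.48, 1.44 and 1.25 in the CH (FC 3.61, adjusted p = 6.07e-05, limma). Mlana, a melanosome protein, had -0.05, -0.45 and -0.67 against 1.40, 1.41 and 0.91 (FC 3.1, adjusted p = 0.0004), and Pmel, which builds the fibrils of the melanosome, had -0.41, -0.69 and -0.87 against 1.01, 1.19 and 0.45 (FC 2.91). In all 3 genes the highest RPE array was below the lowest CH array, and the probe of Mlana was saturated on 1 CH array. Tyrp1, an enzyme of eumelanin synthesis, had saturated spots on all CH arrays. It was at least 1.40-fold higher there (adjusted p = 0.000119), a bound from the mean log2 Cy5 signals after loess and Aquantile that is open to dye bias. Gpnmb was called too (FC 2.63), and Mlph, Rab38 and Trpm1 passed at log2 FCs of -1.32, -1.22 and -1.08, with other probes of Trpm1 at -1.17 and 0.13. Tyrosinase (Tyr), the first enzyme of the pathway, lay in the opposite direction, with log2 ratios of -0.98, -1.14 and -1.15 in the RPE and of -1.41, -1.93 and -1.98 in the CH (log2 FC 0.68, adjusted p = 0.00875), and its second probe gave 0.82. Rab27a, which moves melanosomes, was higher in the RPE as well, at 0.79. With median centring, neither Tyr nor Rab27a passed. In the study's own semi-quantitative RT-PCR, Tyr was highest in the CH.

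Markers of melanocytes of the neural crest moved in the same direction. Of 9 genes 5 passed, all higher in the CH, and 3 were called. Pax3, a transcription factor of these cells, had log2 ratios of 0.30, 0.47 and -0.10 in the RPE and of 2.13, 2.30 and 1.51 in the CH (FC 3.39, adjusted p = 0.000562, limma), and its other probe gave -1.68. Mc1r, the receptor for melanocortin, differed by -1.56 and the receptors Kit and Ednrb by -0.83 and -1.13. The mean log2 ratio of Mc1r was highest in the PR, at 1.71 against 1.11 in the CH and -0.45 in the RPE. Sox10, a defining marker, did not pass (-0.27, adjusted p = 0.0868). Mitf, the regulator of pigment cells, and its relative Tfec were higher in the CH at -0.50 and -1.24 (adjusted p = 0.0373 and 0.000203). Mitf no longer passed without any 1 of 6 arrays, and only 1 of the 3 RPE arrays had Tfec well above background. In a bulk sample, fewer cells of a type and less RNA per cell cannot be told apart, here and in the lists below. Of the other transcription factors of the RPE, Otx2 was called (FC 2.56, adjusted p = 0.00786) and Lhx2 and Sox9 passed at 1.12 and 0.81. The log2 ratios of Otx2 were 1.58, 1.78 and 1.25 in the RPE and -0.30, -0.09 and 0.94 in the CH, and the call was lost without any 1 of 8 arrays.

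**Figure D3:**
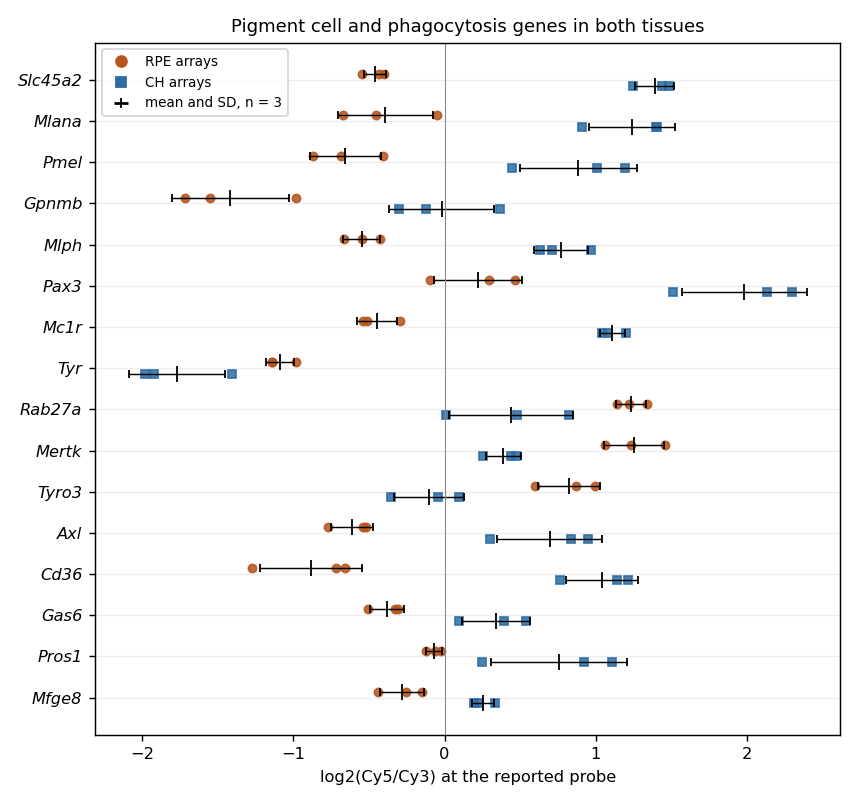
Log2(Cy5/Cy3) on each RPE array (circles) and CH array (squares) for 9 pigment cell genes and 7 genes of outer segment uptake, with the mean and SD of each tissue (n = 3). Tyr, Rab27a, Mertk and Tyro3 lie to the right in the RPE, and the other 12 genes lie to the right in the CH.

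Type I collagen and other collagens were among the genes with the largest differences on the side of the CH. Of 43 collagen genes 17 passed higher in the CH, 12 of them called, and 6 passed higher in the RPE. Col1a1, the main chain of type I collagen, had log2 ratios of -1.81, -1.44 and -1.73 in the RPE and of 2.08, 1.84 and 1.96 in the CH, an FC of 12.3 (log2 FC -3.62, standard error 0.12, adjusted p = 2.99e-06, limma). The files place its probe at chr11:94813115-94813174 of mm9. Col12a1, which associates with collagen fibrils, had -3.14, -3.62 and -3.62 against 0.22, -0.04 and 0.07 (FC 11.6, adjusted p = 9.25e-05), and Col1a2 had -1.15, -1.12 and -1.46 against 1.80, 2.05 and 1.24 (FC 7.66, adjusted p = 0.0001). Each of the 3 genes was well above background on all 6 arrays and kept its call without any 1 array. Col11a1, Col16a1, Col3a1 and Col6a1 were called at FCs of 4.29, 3.82, 3.36 and 3.18, and the other probes of Col16a1 gave log2 FCs of -2.05 and -0.17. The collagens higher in the RPE were of other types. Col4a3 and Col4a4, chains of basement membrane collagen, passed at log2 FCs of 1.31 and 1.13, Col8a1 and Col8a2, which build networks in Bruch's membrane, at 1.13 and 1.23, and Col9a3 at 1.21. The third probe of Col4a4 gave -0.09.

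Most of the proteoglycans, elastic fibre genes and matricellular proteins that passed the test were higher in the CH. Of 18 proteoglycans 7 passed, all higher in the CH. Omd, of the small leucine-rich family, had log2 ratios of -3.30, -3.39 and -3.36 in the RPE and of -1.01, -1.06 and -1.12 in the CH (FC 4.89, adjusted p = 3.42e-05, limma). Lum had an FC of 3.69, and decorin (Dcn), saturated on all CH arrays, was at least 2.26-fold higher in the CH. Among 21 elastic fibre genes 10 passed higher in the CH, with Mfap5, Fbln1 and Lox at FCs of 3.48, 3.35 and 3.28, and 1 higher in the RPE. This was Loxl4, a lysyl oxidase, with 1.29, 1.13 and 1.10 in the RPE and -0.50, -0.65 and 0.07 in the CH (FC 2.90, adjusted p = 0.000389), so that the oxidases Lox and Loxl4 differed in opposite directions. Second probes gave log2 FCs of -0.84 for Fbln1, -1.12 for Lox and 1.16 for Loxl4. Of 25 matricellular genes 15 passed higher in the CH and 2 higher in the RPE. Fibronectin (Fn1) had -2.32, -2.59 and -2.70 against 0.09, 0.01 and -0.13 (FC 5.76, adjusted p = 0.000135) and Comp, of tendon and cartilage, -0.36, -0.75 and -0.92 against 1.95, 2.28 and 2.17 (FC 6.99). Ccn5 had an FC of 7.53, but it lacked a value on CH replicate 2, and 1 of the 3 RPE arrays had it well above background. The 2 genes higher in the RPE were Spon1 (FC 2.69) and Spock1 (2.67), whose second probe gave a log2 FC of -0.01.

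Basement membrane genes were higher in the CH in 13 of 27 genes and in the RPE in 4, with no call. The laminin chain Lama4, of vessels, lay at -1.04 and the nidogen Nid2 at 1.26, and Sulf1, which trims heparan sulfate, at 1.15. Of 51 metalloproteinases and inhibitors 19 passed higher in the CH and 2 higher in the RPE. Timp1 (FC 3.89, adjusted p = 0.000204, limma), Mmp3 (4.61) and Adamts2 (3.82) were called in the CH, and a second probe of Adamts2 gave a log2 FC of 0.02. Timp3, the inhibitor that is stored in Bruch's membrane, had log2 ratios of 2.76, 2.26 and 1.70 in the RPE and of 1.24, 1.38 and 1.12 in the CH, but was saturated on all 6 arrays and has no FC.

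Lists can share genes, and the marker list of fibroblasts, which holds several collagens, was the list with the lowest median, at a log2 FC of -1.75. Of 18 genes 15 passed higher in the CH, 11 of them called. Pi16 had log2 ratios of -2.55, -2.56 and -2.56 in the RPE and of 0.45, 0.43 and 0.03 in the CH (FC 7.23, adjusted p = 0.000101, limma), and the receptor Pdgfra had an FC of 2.87. The median log2 ratio of the list ran from -1.25 to -0.84 in the RPE and from 0.66 to 0.86 in the CH. Fap, a membrane protease, lay in the opposite direction at 1.20. Dpt, a defining marker, did not pass (0.28, adjusted p = 0.2). Transcription factors of the periocular mesenchyme, the embryonic source of this stroma, were higher in the CH in 15 of 20 genes and in the RPE in 0 (limma, also at an unadjusted p below 0.05), and 9 were called. Foxc2 had -1.64, -1.59 and -1.79 in the RPE and 0.90, 1.30 and 0.74 in the CH (FC 6.29, adjusted p = 3.42e-05) and Meox1 had an FC of 5.38. Six2, Twist1 and Prrx1 were called at 3.51, 3.01 and 2.95, and the second probe of Six2 gave a log2 FC of -0.87. Of 18 genes of tendon, cartilage and sclera 8 passed higher in the CH, among them Mkx, a regulator of tendon (FC 4.52), and 1, Sox9, higher in the RPE. How much sclera the CH samples held was not tested.

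**Figure D4:**
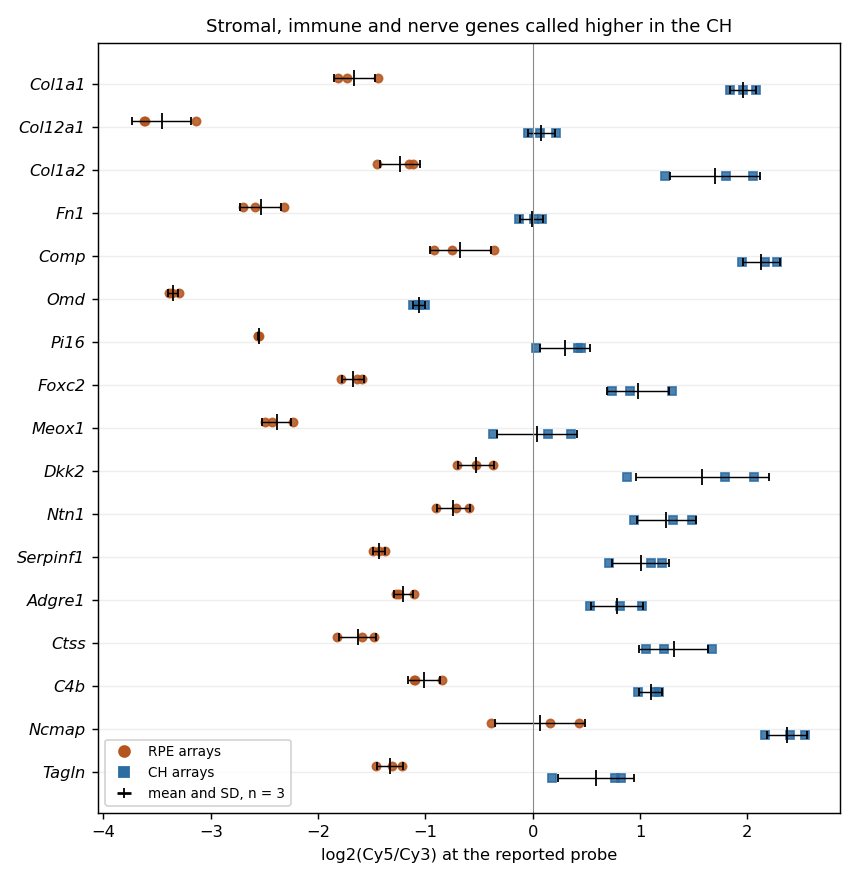
Log2(Cy5/Cy3) on each RPE array (circles) and CH array (squares) for 17 genes called higher in the CH, with the mean and SD of each tissue (n = 3). The tissues do not overlap in any of them, as in every called gene, and the distance is largest for Col1a1 and Col12a1, at 12.3-fold and 11.6-fold.

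Secreted signals differed in both directions within families. Of 33 growth factors of the BMP, TGF, VEGF and FGF families and related proteins 7 passed higher in the RPE and 11 higher in the CH. Bmp4 had log2 ratios of 1.79, 2.61 and 2.18 in the RPE and of 0.54, 0.40 and 1.25 in the CH (FC 2.75, adjusted p = 0.0032, limma). Its second probe gave a log2 FC of 0.99, and the call was lost without any 1 of 4 arrays. Tgfa, a ligand of the EGF receptor, had 0.94, 1.04 and 1.08 against -0.04, -0.81 and -0.18 (FC 2.57, adjusted p = 0.000894). Vegfa, which maintains the choroidal capillaries, passed at 0.90 (adjusted p = 0.00185), with 1.05, 1.25 and 1.11 in the RPE and 0.17, 0.13 and 0.40 in the CH, and its second probe gave 1.10. The tissues did not overlap in these 3 genes. Bmp7 and Bmp2 passed at 1.02 and 0.87. On the side of the CH, Ccn2 had -0.11, -0.12 and -0.20 in the RPE and 2.48, 2.93 and 1.91 in the CH (FC 5.99), and Gdf10 and Tgfb3 had FCs of 4.69 and 4.02. Serpinf1, the inhibitor of angiogenesis known as PEDF that is often named as a product of the RPE, had -1.37, -1.43 and -1.49 in the RPE and 1.10, 1.20 and 0.71 in the CH (FC 5.42, adjusted p = 3.42e-05). Its second probe gave -0.39.

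Insulin-like growth factor genes were higher in the CH in 4 of 8 genes, with Igf1 (FC 3.59, 4 other probes between -1.82 and -0.04 on the log2 scale), Igfbp6 (2.61) and Igfbp5, saturated on all CH arrays and at least 1.47-fold higher there. Igfbp2 was higher in the RPE at 0.98. Of 25 Wnt ligands, secreted antagonists and related proteins 10 passed higher in the CH and 2 higher in the RPE. The antagonist Dkk2 had log2 ratios of -0.52, -0.37 and -0.70 in the RPE and of 2.07, 1.79 and 0.88 in the CH (FC 4.32, adjusted p = 0.000684, limma), and Sfrp4, Rspo3 and Wnt5a had FCs of 3.47, 3.46 and 2.84. The 2 higher in the RPE were the antagonists Sfrp1 and Sfrp5, at 1.26 and 0.98. Guidance molecules were higher in the CH in 9 of 29 genes and in the RPE in 2. Netrin 1 (Ntn1) had -0.72, -0.60 and -0.91 in the RPE and 1.31, 1.48 and 0.94 in the CH (FC 3.96, second probe at a log2 FC of -0.63), and Slit3 and Sema4d had 3.15 and 2.56. Sema3c lay at 1.85 in the opposite direction, not called at an adjusted p-value of 0.0117, with 0.78, 0.70 and 2.52 in the CH against 3.04 to 3.38 in the RPE, and Sema4a at 0.82.

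**Figure D5:**
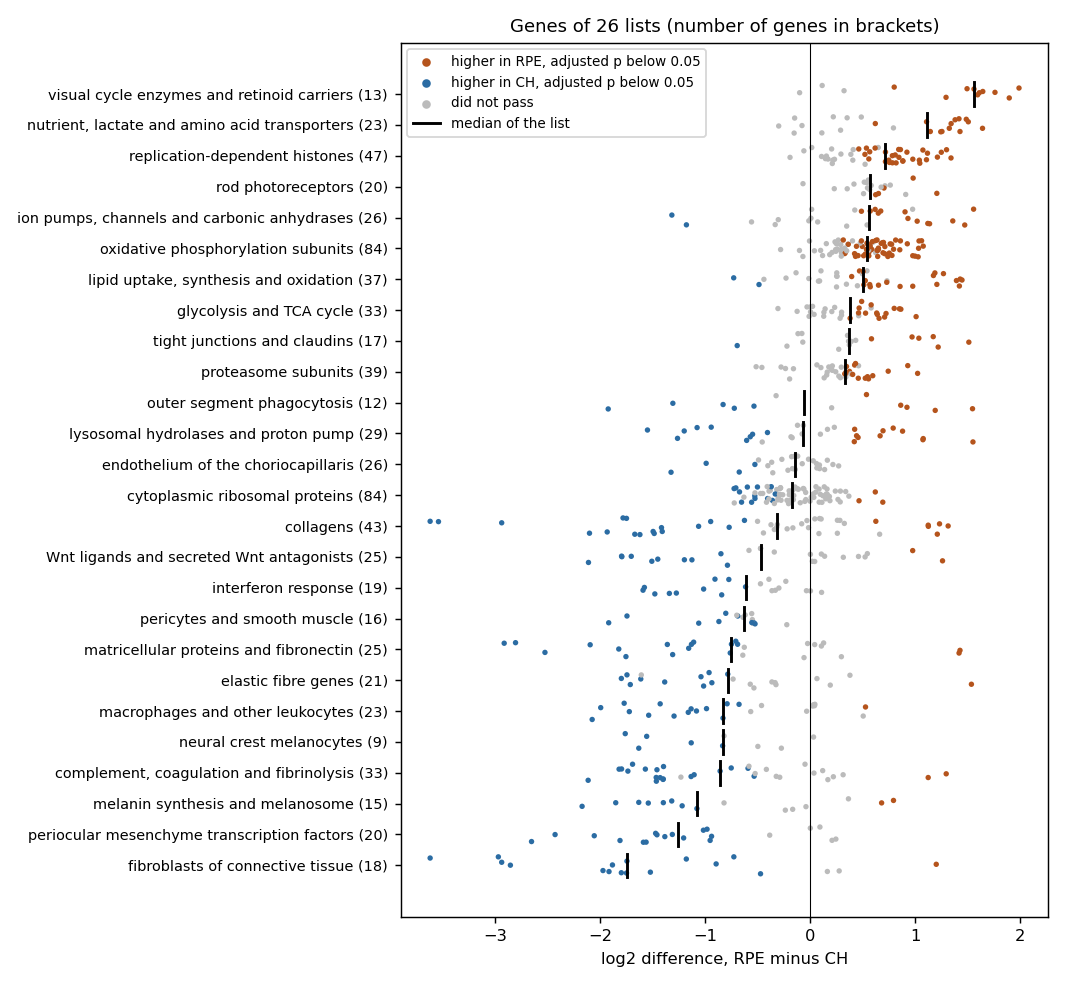
Log2 FC of the RPE over the CH for every tested gene of 26 lists, 1 point per gene, with the median of each list as a black bar and colours for genes at an adjusted p-value below 0.05 (limma). The medians run from 1.56 for the visual cycle to -1.75 for fibroblast markers, and lists such as the lysosome hold genes of both directions.

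Few markers of the endothelium passed the test, whereas more of those of the vessel wall did. Of 26 genes of the choroidal endothelium 4 passed, Sox17, Cd93, Vwf and Ephb4, all higher in the CH, and the median log2 FC was -0.14. Sox17 was called (log2 FC -1.32, adjusted p = 0.000823, limma) but lost the call without replicate 1 or 3 of the RPE or replicate 1 or 2 of the CH. Of the defining markers, Cdh5 had log2 ratios of 1.81, 1.90 and 1.74 in the RPE and of 2.42, 2.24 and 2.00 in the CH, a difference that did not pass (adjusted p = 0.177). Pecam1 (-0.17) and Kdr (0.27) did not pass either. The median log2 ratio of the 26 genes was 1.38, 1.52 and 1.38 in the RPE, 1.93, 1.80 and 1.55 in the CH and between -2.30 and -2.08 in the PR. The RPE samples thus held RNA of this list at a level near that of the CH after loess. How much of it came from endothelial cells, and its part in other results, was not tested. With median centring 10 of the 26 genes passed, all higher in the CH. Of 16 genes of pericytes and smooth muscle 9 passed, all higher in the CH, with Tagln (FC 3.78) and Cnn1 (3.35) called. Acta2 and Pdgfrb passed at -0.87 and -1.06.

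Of the immune genes that passed the test, most were higher in the CH, although many members of the lists did not pass. Of 23 markers of macrophages and other leukocytes 14 passed higher in the CH and 1 higher in the RPE. Adgre1 (F4/80), a macrophage surface protein, had log2 ratios of -1.24, -1.10 and -1.27 in the RPE and of 0.81, 1.02 and 0.53 in the CH (FC 3.98, adjusted p = 6.41e-05, limma), and its second probe gave -1.21. Laptm5 had an FC of 4.21, Mrc1 of 3.41, C1qc of 3.30 and Tyrobp of 2.90. Lyz1, a lysozyme, differed by -3.58 on the log2 scale without a value on CH replicate 1 and with 1 saturated CH array, and it shares much of its sequence with Lyz2. The exception was Csf1r, the receptor for the growth factor of macrophages, at 0.53 (adjusted p = 0.0161) with its 2 other probes at 0.55 and 0.93. Cd68 passed at -0.79 with overlapping arrays, and Ptprc did not pass. Of 33 complement, coagulation and fibrinolysis genes 19 passed higher in the CH, 12 of them called, and 2 higher in the RPE. C4b had -0.84, -1.11 and -1.10 in the RPE and 1.17, 1.14 and 0.98 in the CH (FC 4.33, adjusted p = 2.98e-05), although its probe may also catch its near copy C4a. The inhibitor Serping1 had an FC of 3.53, C3 of 3.47 and Thbd of 2.75. The 2 genes higher in the RPE were A2m (1.30) and tissue factor (F3, 1.12), whose second probe gave 1.61.

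Among 53 chemokines and receptors 17 passed higher in the CH, with Cxcr4, Ccl3 and Ccl6 at FCs of 3.09, 3.01 and 2.68, and 2 higher in the RPE, the scavenging receptor Ackr3 (1.05) and Ccl25 (0.78). Genes of the interferon response were higher in the CH in 10 of 19 and in the RPE in 0 (limma, also at an unadjusted p below 0.05), with Mx1, Oas1a and Oas2 at FCs of 3.01, 2.99 and 2.79. Antigen presentation had 7 of 16 genes higher in the CH and no call, with H2-Ab1 and Cd74 at -1.25 each. Of 12 mast cell genes 3 passed, Cpa3 at -1.19, Kit and Fcer1a, and the defining markers Cma1 and Tpsb2 did not pass. Of 14 immunoglobulin genes 1, Jchain, passed, higher in the CH, but the list does not hold the transcripts BC019489 and XM_001001076 of the heavy chain locus, both called in the CH. Cell cycle genes were higher in the CH in 8 of 18 genes and in the RPE in 1, with Mki67 at -1.04 and Rrm2 at -1.07.

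Of 18 markers of Schwann cells and nerve 9 passed higher in the CH and 2 higher in the RPE, and 7 did not pass. Called were 5, all in the CH. Ncmap, a myelin protein of peripheral nerve, had log2 ratios of 0.16, 0.43 and -0.39 in the RPE and of 2.54, 2.40 and 2.17 in the CH (FC 4.93, adjusted p = 0.000139, limma). S100b, Gfra3 and Prx had FCs of 3.93, 3.41 and 3.25. Mbp was among those higher in the RPE at its reported probe (0.46), with 2 other probes at -0.90 and -0.01. Egr2, which drives myelination and is also an immediate early gene, had log2 ratios of 0.12, -0.42 and -0.26 in the RPE and of 1.70, 2.12 and 1.79 in the CH (FC 4.15).

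Receptors and integrins differed in both directions. Of 34 G protein-coupled, hormone and adenosine receptors and related genes 6 passed higher in the RPE and 17 higher in the CH. Adra2c, an adrenergic receptor, had log2 ratios of 1.87, 2.40 and 1.84 in the RPE and of 0.52, 0.34 and 1.24 in the CH (FC 2.52, adjusted p = 0.0032, limma). The thyrotropin receptor Tshr and the adenosine receptor Adora2b passed at 1.15 and 1.14. In the study's semi-quantitative RT-PCR, however, Tshr was highest in the CH. The prostaglandin receptor Ptger2 was called in the CH (FC 3.00). Of 27 integrin genes 3 passed higher in the RPE and 11 higher in the CH. The RPE genes were Itgav, Itgb8 (0.94, 1.12 and 0.77 against -0.53, -0.64 and -0.33, FC 2.72, adjusted p = 0.000799) and Itgb6 (0.82, second probe 0.28), and beta 6 and beta 8 are partners of alpha v in receptors that activate latent TGF-beta. Itgb4, Itga8 and Itga11 were called in the CH at FCs of 3.81, 3.75 and 3.43. Itgbl1, an integrin-like protein, had -2.55, -2.71 and -2.97 in the RPE and 0.69, 0.65 and 0.32 in the CH (FC 9.84, adjusted p = 1.69e-05), and its second probe gave a log2 FC of -0.28. In the solute carrier family as a whole, 69 of 393 genes passed higher in the RPE and 60 higher in the CH, with 7 and 11 called. Over all genes tested, 10.3% passed higher in the RPE and 12.2% higher in the CH, with 0.186% and 1.77% called. The largest FC of the family was that of Slc18a2, a carrier of monoamines, in the CH (5.92, second probe at -2.10 on the log2 scale).

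The largest FC of all belonged to a transcript of the immunoglobulin heavy chain locus. BC019489, which the files describe as a heavy chain of serum IgG and place at chr12:114525496-114525555 of mm9, had log2 ratios of -0.85, -0.55 and -1.19 in the RPE and of 3.45, 4.03 and 1.86 in the CH, an FC of 15.7 (adjusted p = 0.000413, limma), and 2 of the 3 RPE arrays had its probe well above background. Without CH replicate 3 its log2 FC went from -3.97 to -4.60, a change of over 1.5 times in the FC. XM_001001076, described as a heavy chain of the gamma class and placed near it at chr12:114544738-114544797, had an FC of 9.62 with a second probe at a log2 FC of 0.11, and 1 of the 3 RPE arrays had it well above background. Heavy chain genes are near copies of each other, so their probes may share transcripts. LOC100044727, of a hypothetical protein, had -1.34, -1.18 and -1.44 against 1.77, 2.02 and 1.49 (FC 8.46, adjusted p = 3.42e-05). Fndc1, with fibronectin domains, had an FC of 7.36 and 2 other probes at -0.43 and -0.08.

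Genes of neighbouring cells were measured in the same way. Of 20 rod genes 5 passed, all higher in the RPE (median log2 FC 0.57), with Slc24a1, the exchanger of the outer segment, at 1.21 and Rom1 at 0.98, and none was called. Gnat1 and Sag, which are among the defining markers, did not pass (adjusted p = 0.244 and 0.0878). The median log2 ratio of the rod genes was 0.66, -0.29 and 0.08 in the RPE and -0.99, -0.39 and -0.05 in the CH. In the PR it ran from 3.38 to 3.56. The RPE and CH ranges overlapped. Of 12 cone genes 2 passed higher in the RPE, Thrb at 0.62 and Pde6c. Of 12 genes of Müller glia 3 passed higher in the CH, with Dkk3 (FC 2.73) called, a secreted relative of the Wnt antagonists. Of 20 genes of inner retinal neurons 3 passed in each direction. The list of the ciliary and iris epithelium had 3 of 10 genes higher in the RPE and 2 higher in the CH. Skeletal muscle genes passed in 2 of 22, both higher in the RPE, and red blood cell genes in 0 of 10 (limma, also at an unadjusted p below 0.05), with a median log2 FC of 0.15. Of 17 immediate early and heat shock genes 3 passed higher in the CH, and of 20 circadian clock genes 2 passed higher in the RPE and 1, Per1 at -0.90, higher in the CH. The part of photoreceptor RNA in other results was not tested.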

How the data were processed

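The authors scanned dual-colour Agilent arrays of laser-dissected mouse tissue and extracted spots with Agilent Feature Extraction 9.5.3.1 and, per the submitters' notes, used R 2.14.0 and limma. The deposited scanner files hold the mean spot intensity and the local background intensity of each channel, and the log10 ratio of the processed signals. The deposited series table gives the Cy5 channel on a log2 scale, and how the authors normalised it is not given in the sources used here.

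For each array, intensities were background-corrected (normexp, offset 50), made into log2(Cy5/Cy3) and normalised by loess within the array in R 4.3.3 with limma 3.58.1. Control spots and marked spots were left out. All 9 arrays were fitted with lmFit and eBayes, following the thresholds of the study (FC above 2.5, B-H adjusted p-value below 0.01), for 39429 probes, of which 1 per gene was reported for 31709 genes. Adjustment ran over all probes. The number of arrays limits the precision, and the signal over background is given per array. The fit and its thresholds were tested on simulated log2 ratios with independent noise. Of probes changed by a log2 value of 2, 92 of 100 were called, and of those changed by 3, 99 of 100. Background correction, loess and differences between whole arrays were not part of the simulation. Changes as small as those called in the RPE, of at most 1.99, were not simulated. Groups were taken from the labels.

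The members of the 54 gene lists were chosen with earlier results of these data known. Genes were named by rule as the 12 with the largest FC in each direction without overlap and saturation limits, up to 3 called members per list (or the member with the largest difference) and defining markers. Other named genes were chosen after their values were seen, to describe a list. Not every gene that met the rule is reported. Gene names and promoters came from RefSeq on GRCm38.p6, and no position was converted from mm9. Alternatives in background correction, normalization, filters, arrays and thresholds were run.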

Additional observations from a re-analysis of the deposited data

How the results depend on the processing

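The 59 calls in the RPE and 560 in the CH became 9 and 1050 with median centring, which held all 560 and 9 of the 59, 15 and 338 in the series table, 301 and 1147 at an FC above 2, 0 and 87 above 4, and 3279 and 3861 at an adjusted p-value below 0.05 without a fold threshold. With Cy5 alone there were 17 calls in the RPE. Leaving out each array in turn gave 16 to 151 calls in the RPE and 436 to 745 in the CH. Without CH replicate 3 and RPE replicate 3 together, a choice made after seeing the data, there were 179 calls in the RPE. The other alternatives kept both counts within 1.5 times, but not always the genes. Of the 59 RPE genes, the Feature Extraction log ratio shared 30 of its 44 calls, and the fit without CH replicate 1 shared 35 of its 63. The series table shared 7 of its 15 calls in the RPE, and Cy5 alone shared 12 of its 17. In the CH the series table shared 300 of its 338 calls. The share of calls that were higher in the RPE was 9.53%, against 0.85% with median centring and 21.1% without those 2 arrays. The causes were not tested. Over 218 single genes, which include nearly all those given with values, 4665 combinations of gene and setting kept direction and side of the threshold, 547 kept only the direction, 5 newly passed and 2 reversed. The reversals were Pecam1 without CH replicate 1 (range over the left-out arrays -0.47 to 0.072) and Mbp at -0.38 with the median over its probes.

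Deviations from the tissue mean had correlations of -0.07, 0.16 and -0.04 between RPE and CH samples of the same replicate number (1, 2 and 3). Between samples of different numbers they ran from -0.12 to 0.19. With 3 arrays per tissue the deviations are tied to each other, so this does not settle whether the numbers pair the samples. With the replicate number as a block there were 55 calls in the RPE and 567 in the CH. Saturated spots on all arrays of a tissue leave no FC for Rpe65, Rdh5, Ttr, Enpp2 and Timp3. For Tyrp1, Igfbp5, Dcn and Rps12 they leave only a lower bound. Lrat, Pon1, Gpx4, Slc2a1, Mlana and Lyz1 were saturated on some arrays. Dim probes limit the FCs of Ccn5, Tfec, BC019489 and XM_001001076.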
